A study of Mus musculus with 13 samples.

Results

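Leukaemic T cells at a late stage of T-cell acute lymphoblastic leukaemia (T-ALL) were compared with the normal thymocytes that carry the same surface markers, CD4+CD8+ double-positive (DP) cells, for their microRNAs (miRNAs). The members are the mouse miRNAs that the scanner software marked as detected on all 3 arrays of at least 1 of the 2 groups, 261 of the 1122 mouse miRNAs on the array. Of these, 178 were detected on every array of both groups, 32 on every late-stage (LS) array without being detected on all DP arrays, and 51 on every DP array without being detected on all LS arrays.

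LS cells were sorted as CD4+ and CD8+ from the spleen of C57BL/6 bone marrow chimeras, mice rebuilt with marrow that had been transformed with N1ICD, the active intracellular part of Notch1. DP cells were sorted from the thymus of C57BL/6 mice and carry no transgene that the labels mention. The 2 other primary groups, used here for reference and for the shared spread of the fit, are CD4-CD8- double-negative (DN) thymocytes, the stage before DP, and early-stage T-ALL (ES) from the spleen of such chimeras. Each group has 3 biological replicates, and M295, a cultured T-ALL line, has 1 array. The labels give neither the vector or promoter behind N1ICD nor the age of the mice. Leukaemia and tissue cannot be told apart, since LS came from spleen and DP from thymus. The array holds no probes for Cd4 or Cd8 RNA, so the labelled cell type could be checked only against miRNAs of other cell types, which are given further on.

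A miRNA is a short RNA of about the length of the sequences printed here, cut from a hairpin precursor by Drosha and Dicer. One arm of the hairpin, named 5p or 3p, usually stays in the Argonaute protein and guides it to messenger RNAs, mostly through its seed, bases 2 to 8 from the 5′ end. miRNAs with the same seed share most predicted targets and form a family. In the thymus, miR-181a is known to set the sensitivity of the T-cell receptor in DP cells, and miR-150, miR-155, the miR-17-92 cluster and the miR-15/16 family are known in T-cell development, activation, proliferation and survival. Active Notch1 is the most common driver of T-ALL.

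The mature sequences below were taken from RefSeq (assembly GRCm38.p6), which gave one for 196 of the 261 members, 184 by name and 12 through a synonym of the gene. The first set shows families whose measured members all fell in LS, with the seed in capitals, so that a reader can see what they have in common and where they differ. The miR-15/16 family shares AGCAGCA, the miR-181 family ACAUUCA and the miR-30 family GUAAACA.
miR-15a-5p: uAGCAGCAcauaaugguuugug
miR-15b-5p: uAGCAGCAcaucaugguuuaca
miR-16-5p: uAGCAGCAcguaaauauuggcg
miR-195-5p: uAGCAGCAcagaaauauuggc
miR-322-5p: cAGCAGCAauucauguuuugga
miR-181a-5p: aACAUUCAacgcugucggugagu
miR-181b-5p: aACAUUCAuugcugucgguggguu
miR-181c-5p: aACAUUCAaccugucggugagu
miR-181d-5p: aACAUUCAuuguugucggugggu
miR-30a-5p: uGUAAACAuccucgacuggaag
miR-30c-5p: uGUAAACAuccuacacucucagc
miR-30e-5p: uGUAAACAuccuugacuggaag

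The second set shows miRNAs that share a seed but did not share a call, again with the seed in capitals. miR-721 has the seed AGUGCAA of miR-130a and miR-301a, miR-27a and miR-27b differ by 1 base (C19U, counted from the 5′ end of miR-27a), and miR-148a and miR-148b by 2 bases (C9U and U10C). miR-34a and miR-449a share GGCAGUG.
miR-721: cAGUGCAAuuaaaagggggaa
miR-130a-3p: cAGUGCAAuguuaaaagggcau
miR-301a-3p: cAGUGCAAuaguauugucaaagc
miR-27a-3p: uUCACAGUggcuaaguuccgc
miR-27b-3p: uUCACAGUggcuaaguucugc
miR-148a-3p: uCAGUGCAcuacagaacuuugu
miR-148b-3p: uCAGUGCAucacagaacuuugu
miR-34a-5p: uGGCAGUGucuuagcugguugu
miR-449a-5p: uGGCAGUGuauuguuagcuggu

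The third set shows members with a run of GUGUGU, all of which fell, and the fourth members with a run of GGGG, of which more rose than fell. Here the capitals mark the run and not the seed. Both runs were chosen after the values had been seen.
miR-672-5p: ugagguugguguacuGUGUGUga
miR-32-3p: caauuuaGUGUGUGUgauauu
miR-294-3p: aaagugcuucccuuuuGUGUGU
miR-206-3p: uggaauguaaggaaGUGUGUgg
miR-574-5p: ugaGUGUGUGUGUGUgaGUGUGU
miR-1187: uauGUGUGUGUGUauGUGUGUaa
miR-5126: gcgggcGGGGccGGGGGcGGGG
miR-211-3p: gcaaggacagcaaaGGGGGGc
miR-370-3p: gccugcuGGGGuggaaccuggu
miR-149-3p: gagggagggacGGGGGcggugc
miR-2861: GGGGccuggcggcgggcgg

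Levels are given as the log2 of the background-subtracted fluorescence, scaled on each array to the 75th percentile of the 133 mouse miRNAs detected on all 12 primary arrays, so that 0 is the signal of that percentile. Values below -7.09 were set to -7.09, the floor, and have no order among themselves. Levels of different miRNAs are not compared, since probes differ in brightness. A fold change is LS over DP where higher and DP over LS where lower, its error is the standard error (SE) of the fit, and a miRNA is called where limma's Benjamini-Hochberg adjusted p over the 268 tested miRNAs is under 0.05. The SE pools the spread of all 4 groups, so a miRNA that is variable in ES or DN has a wide SE even where LS and DP are tight.

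The LS arrays had 246, 272 and 255 mouse miRNAs detected (258 ± 13.2, SD, n = 3) and the DP arrays 240, 268 and 243 (250 ± 15.4), a difference of 7.33 that is within the spread (exact permutation test, two-sided, p = 0.5, with 0.1 the smallest this design allows). No spot was saturated. The negative controls had an SD of 5.21 to 5.49 intensity units on the DP arrays and 5.47 to 7.11 on the LS arrays, with the highest on LS 1. ES 1, which enters the shared spread of the fit, had an SD of 18.7 and 148 mouse miRNAs detected. DP 1, LS 1 and LS 2 lay on slide 1, and DP 2, DP 3 and LS 3 on slide 2. The LS arrays varied more among themselves than the DP arrays did. The median SD of a member was 0.35 in LS and 0.12 in DP.

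Of the 261 members, 62 were called higher in LS and 93 lower, and 106 were not called. Of the 178 detected on every array of both groups, 43 were called higher and 52 lower, with a median log2 difference of 0.03. The 32 that entered through the LS arrays alone gave 19 rises and 0 falls. The 51 that entered through the DP arrays alone gave 0 rises and 41 falls. For these 2 sets the direction follows from how they entered. Over all 268 tested miRNAs 23.5% were called higher and 34.7% lower (58.2% in either direction), and the members make up nearly all of those tested, so these shares are the background for each count that follows. LS and ES, for comparison, differed in 3 of the 268, or 1.12%. The median difference from DP was -0.05 on the log2 scale over all tested miRNAs and -0.09 over the members. The fitted rises of called members ran from 1.53-fold to 18.7-fold with a median of 3.50-fold, and the falls from 1.36-fold to 15.8-fold with a median of 2.51-fold. With the 18 rises and 26 falls that were not above background on any array of the lower group set to their bounds, the medians were 3.50-fold and 2.501-fold. In 60 of the 62 rises and all 93 falls the LS and DP arrays did not overlap, against 73.1% of all tested miRNAs. The calls were made from these same arrays, so the lack of overlap is no separate evidence for them. At least 1 DP array was at the floor in 14 of the rises and at least 1 LS array in 31 of the falls. With the slide as a block 146 of the 155 calls were still made. Within slide 1 alone 55 of them were made and within slide 2 alone 126. Slide 1 holds 1 DP and 1 DN array and slide 2 holds 1 LS and 1 ES array, and such a lone array is assumed to vary like the other groups. All 155 had the same sign within both slides. Where the LS and DP arrays did not overlap, as in nearly all of these calls, that sign was fixed in advance, so it is no separate check.

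The balance of rises and falls moved with the processing. With normexp background correction 28 miRNAs were higher and 77 lower, and with the scaling taken over the miRNAs well above background, an alternative added after the data had been seen, 83 were higher and 71 lower, while the median of all tested miRNAs moved by -0.14 and by 0.23 on the log2 scale. A small difference of either sign is therefore to be read against the scaling.

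**Figure D1:**
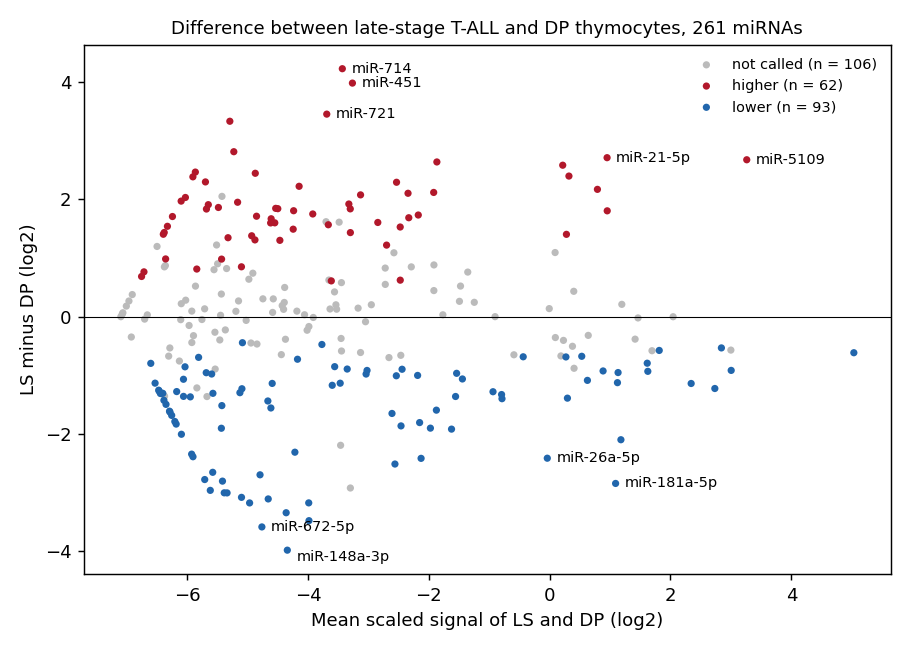
Each point is 1 of the 261 members, with the mean scaled signal of LS and DP on the x axis (log2) and the difference LS minus DP on the y axis (log2). Red points were called higher (62), blue points lower (93) and grey points were not called (106). The edges of the cloud at the left come from the common floor, where fitted differences depend on it, and miR-714 and miR-148a-3p are the extremes.

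Among the miRNAs above background in both groups, miR-714 had the highest fitted rise. It gave -0.47, -0.92 and -2.55 on LS 1, LS 2 and LS 3 and -5.17, -5.18 and -6.28 on the DP arrays, an 18.7-fold difference (log2 fold change 4.23, SE 0.51, limma adjusted p = 1.18e-04). LS 3 was the lowest LS array and still lay far above every DP array. The rise was 4.47 on the log2 scale within slide 1 and 3.18 within slide 2. RefSeq gave neither a gene nor a sequence for its name, nor for miR-5109, miR-1940 and miR-712-3p, which are given below.

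miR-21-5p is a miRNA known as oncogenic in many cancers and raised by lymphocyte activation. It gave 3.21, 1.74 and 1.97 on the LS arrays against -0.28, -0.36 and -0.57 on the DP arrays, and rose 6.55-fold (log2 fold change 2.71, SE 0.43, adjusted p = 5.17e-04). The groups stood far apart, with LS 1 highest, and the rise was 2.75 on the log2 scale within slide 1 and 2.44 within slide 2. DN thymocytes lay at 1.82 ± 0.14 (SD, n = 3), and LS minus DN was 0.49 (adjusted p = 0.433), a difference that missed the threshold (95% interval -0.46 to 1.44). The other arm of its hairpin, miR-21-3p, was at -6.16, at the floor and at -6.89 on the LS arrays and at the floor on all DP arrays, and missed the threshold (adjusted p = 0.355).

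miR-721, whose sequence carries the miR-130 seed, gave -0.77, -1.92 and -3.19 on the LS arrays against -5.16, -5.09 and -5.99 in DP, a 10.9-fold rise (log2 fold change 3.45, SE 0.53, adjusted p = 4.75e-04). miR-5109 gave 5.37, 4.60 and 3.83 against 2.08, 2.04 and 1.65 (log2 fold change 2.67, SE 0.33). In both the order LS 1, LS 2, LS 3 from high to low was the same, and no LS array overlapped with DP. miR-494-3p had the reverse order among the LS arrays, with 1.19, 1.41 and 1.93 on LS 1, LS 2 and LS 3 against -1.02, -1.09 and -1.12 in DP, and rose 5.99-fold (SE 0.39 on the log2 scale, adjusted p = 4.46e-04). miR-370-3p, which like miR-494 lies in the imprinted Dlk1-Dio3 region, had the tightest LS arrays among these rises, at -2.83, -3.003 and -3.27 against -5.28, -5.06 and -5.42 (4.67-fold, SE 0.54, adjusted p = 0.00621). Its neighbour miR-341-3p was at the floor on every DP array and at least 2.96-fold higher in LS. Members of this region did not all rise. In the cluster of miR-494, miR-539-5p went from -5.56, -5.44 and -4.79 in DP to the floor on every LS array (limma adjusted p = 6.38e-05). It entered through the DP arrays alone and had to be higher there. miR-3072-5p of that cluster was not called.

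The other large rises were those of miR-211-3p (log2 fold change 2.64), miR-483-5p (2.44), miR-3960 (2.40), miR-5128 (2.29) and miR-5126 (2.17). miR-483 lies within the gene of the growth factor Igf2. miR-2861, a cluster neighbour of miR-3960, rose by 1.61, with -1.28, -2.22 and -2.61 on the LS arrays against -3.66, -3.61 and -3.67. In each of these, LS 1 was the highest LS array and LS 3 the lowest, and no LS array reached down to DP. miR-3960 was no longer called without LS 1 or without DP 3, nor miR-5128 without any 1 of LS 1, LS 2 and the 3 DP arrays.

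miR-451, a miRNA of red blood cell precursors that is cut by Argonaute instead of Dicer, gave -1.34, 0.93 and -3.41 on the LS arrays and -4.82, -5.19 and -5.75 on the DP arrays (15.8-fold, log2 fold change 3.98, SE 1.18, adjusted p = 0.0153). LS 2 was the highest and LS 3 the lowest, and LS 3 was nearer to the DP arrays than to LS 2. DN thymocytes, at 0.29 ± 0.23, lay above LS 1 and LS 3 and below LS 2. The call was lost without LS 2 or without DP 3. miR-144-3p, made from the same precursor transcript, was above background on LS 2 alone, at -2.92, and at the floor on every DP array. With each miRNA at the floor counted at the floor value, the summed level of the 4 erythroid markers on the array ran from 0.12 to 2.06 times the scaling signal in LS and from 0.040 to 0.057 in DP. Its part in the other differences was not tested.

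In addition, 6 called members that were not above background on any DP array are given as bounds, with each DP array taken at its own value, or at the dimmest signal above background there where that was higher. For miR-1940, miR-139-3p and miR-3102-5p.2-5p the bound equals the fitted difference. miR-3472 gave -2.66, -3.90 and -4.32 on the LS arrays, at least 9.12-fold higher than DP (adjusted p = 1.18e-04). miR-1940 was at least 7.02-fold higher, miR-712-3p at least 5.0-fold, miR-139-3p at least 4.92-fold, miR-149-3p at least 4.73-fold and miR-3102-5p.2-5p at least 3.87-fold. miR-712-3p rested on LS 1 and LS 2, at -3.48 and -3.84, while LS 3 lay at -6.56 near the floor, and it was not called when replicate numbers were blocked. Such miRNAs entered the list through the LS arrays alone, so that they are high there is no finding about them as a group.

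**Figure D2:**
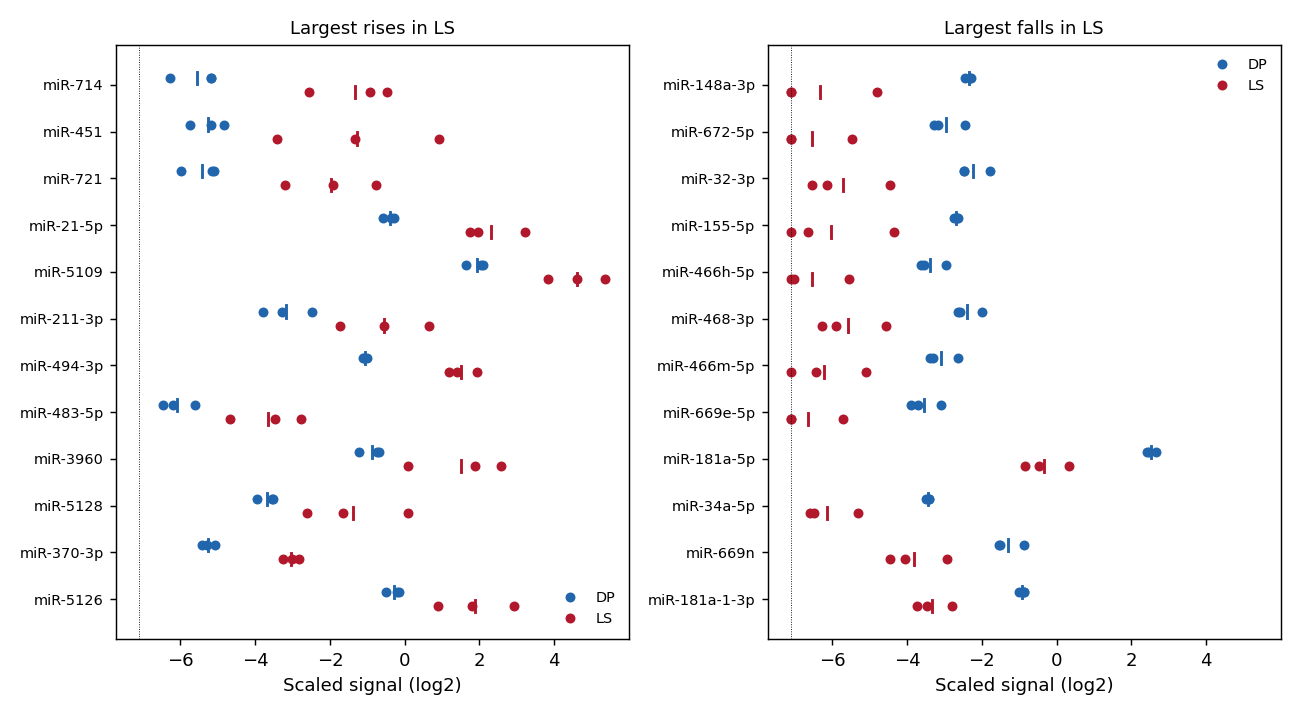
Scaled signal (log2, x axis) of the 12 largest rises and the 12 largest falls among called members above background in both groups, with 1 point for each LS array (red) and each DP array (blue), a short bar at each mean and a dotted line at the floor. The DP points lie close together, the LS points spread more, and the groups overlap in none of the 24, as the rule for naming them required.

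The falls included miRNAs with known roles in T cells. miR-181a-5p, which tunes T-cell receptor signalling and is abundant at the DP stage, gave 2.48, 2.41 and 2.66 on the DP arrays and -0.48, 0.34 and -0.84 on the LS arrays, a 7.17-fold fall (log2 fold change -2.84, SE 0.55, adjusted p = 0.00199). Every LS array lay below every DP array, the fall was 2.55 on the log2 scale within slide 1 and 3.38 within slide 2, and DN was at -0.28 ± 0.14. The opposite arm of 1 of its hairpins, miR-181a-1-3p, fell with it, from -0.87, -1.01 and -0.88 to -3.46, -2.81 and -3.73 (log2 fold change -2.41, SE 0.33). All 4 measured members of the miR-181 family fell, by 2.84 (miR-181a), 1.80 (miR-181c), 1.39 (miR-181b) and 0.90 (miR-181d) on the log2 scale. The fall of miR-181d was not called under 4 of the other normalizations.

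miR-148a-3p fell from -2.30, -2.31 and -2.44 in DP to -4.80 on LS 1 and the floor on LS 2 and LS 3, a fitted 15.8-fold difference whose size depends on the floor (log2 fold change -3.98, SE 1.01, adjusted p = 0.00723). It was at -1.76 ± 0.13 in DN, and LS minus DN was -4.57 (adjusted p = 0.0119). miR-148b-3p, the 2-base variant shown above, gave -4.63, -5.33 and -5.20 in LS and -4.95, -4.88 and -5.14 in DP, with overlapping arrays (log2 fold change -0.06, 95% interval -0.57 to 0.45). miR-155-5p, an activation miRNA from the Bic transcript, fell from -2.67, -2.75 and -2.64 to -4.34 on LS 1, the floor on LS 2 and -6.65 on LS 3 (log2 fold change -3.34, SE 1.08, adjusted p = 0.023). In both, LS 1 kept the most signal and was the only LS array above background. The same limit holds for 8 of the 12 largest fitted falls, which were above background on 1 LS array each, so their fitted folds depend on the floor. The fall of miR-155-5p was not called without any 1 of the 3 DP arrays, LS 2 or LS 3. Both miR-148a-3p and miR-155-5p entered through the DP arrays alone and had to be higher there.

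miR-34a-5p, a miRNA induced by p53, fell from -3.40, -3.50 and -3.42 to -6.61, -6.49 and -5.32 (log2 fold change -2.69, SE 0.72, adjusted p = 0.0096). It too entered through the DP arrays alone and had to be higher there. miR-449a-5p, with the same seed, gave -0.73, -2.18 and -3.18 in LS against -3.05, -3.10 and -3.21 in DP. LS 3 lay among the DP arrays and LS 1 far above them, and the difference of 1.09 (SE 0.66) missed the threshold (adjusted p = 0.172). miR-128-3p, which is abundant in lymphoid leukaemias and brain, fell from 2.34, 2.21 and 2.14 to -0.26, 0.60 and 0.05 (4.28-fold, adjusted p = 5.06e-04).

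miR-340-5p and miR-322-5p were at the floor on all 3 LS arrays, and both entered through the DP arrays alone, where they had to be higher. miR-340-5p was at -4.24, -4.20 and -4.51 in DP and was at least 6.63-fold lower (adjusted p = 0.0263), a call that was lost when any 1 of the 6 arrays was left out. miR-322-5p was at -4.01, -4.10 and -4.29 and was at least 7.54-fold lower (adjusted p = 0.0127).

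Several families fell as a whole. All 5 measured members of the miR-15/16 family fell. Of these, miR-322-5p entered through the DP arrays alone, and the 4 detected on every array of both groups had a median of -1.18. miR-15b-5p went from 3.45, 3.30 and 3.29 to 2.19, 2.32 and 1.86 (2.34-fold, SE 0.16 on the log2 scale, adjusted p = 2.09e-04). miR-16-5p went from 2.86, 2.91 and 2.96 to 1.92, 1.88 and 1.52 (2.20-fold). In both, every LS array lay below every DP array, and the DN means were 2.32 and 1.91, near LS. miR-15a-5p and miR-195-5p fell by 1.12 and 1.52 on the log2 scale, and miR-322-5p has the bound given above. The passenger strands miR-16-1-3p and miR-16-2-3p were at the floor on all LS arrays and were at least 2.60-fold and 2.99-fold lower. Of the 56 members with such a bound, in either direction, only 1 was detected on every array of both groups. For the rest the direction follows from how they entered. The median of the 5 was -1.22 against -0.05 over all tested miRNAs.

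All 5 measured members of the miR-30 family fell, by 0.92 to 1.36 on the log2 scale. miR-30c-5p went from -0.92, -0.86 and -0.85 to -2.30, -2.05 and -2.36 (SE 0.16, adjusted p = 1.18e-04), and miR-30e-5p from -0.07, -0.10 and -0.22 to -1.46, -1.23 and -1.69. In both, each LS array lay more than 1 log2 unit below each DP array. The second arm miR-30e-3p fell by 1.14.

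Of the 8 let-7 members, miRNAs that hold back growth genes such as those of the Ras family and Lin28, 5 fell and 3 were not called. The falls were small, from 0.57 for let-7f-5p to 0.95 for let-7i-5p on the log2 scale, with let-7a-5p at 2.05, 1.92 and 2.06 in DP and 1.21, 1.18 and 1.27 in LS. The groups did not overlap in let-7a, yet with the scaling over all mouse miRNAs none of the 5 was called. let-7b-5p and let-7c-5p, from 1 cluster, differed by -0.50 and -0.32 and were not called.

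The 3 members of the miR-26 and miR-101 names, known to target the histone methyltransferase Ezh2, went opposite ways. The array holds 4 miRNAs of these names, and the rise rests on miR-101b-3p alone. miR-26a-5p gave 1.16, 1.14 and 1.20 in DP and -1.41, -1.15 and -1.17 in LS, a 5.32-fold fall (SE 0.57 on the log2 scale, adjusted p = 0.00537), and miR-26b-5p fell 2.63-fold. Both groups were tight and far apart. miR-101b-3p rose 2.48-fold, from -5.50, -5.30 and -5.79 to -4.42, -4.36 and -3.88 (adjusted p = 0.00104), a call that was not made with normexp background correction. miR-26a and miR-26b both lie in introns of genes of small phosphatases (Ctdsp).

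The miR-23/27/24 clusters split by locus. miR-23a-3p fell from -0.99, -1.06 and -1.02 to -4.20, -2.29 and -2.27 and miR-27a-3p from -1.33, -1.45 and -1.80 to -4.70, -2.85 and -2.62 (log2 fold changes -1.90 and -1.86, adjusted p = 0.0133 and 0.0127). Their paralogs in the other cluster did not pass the test. miR-23b-3p gave -1.99, -0.52 and -1.13 against -1.67, -1.79 and -1.74, and miR-27b-3p gave -2.08, -0.89 and -1.45 against -2.29, -2.33 and -2.45. Within LS, LS 1 was the lowest array for all 4, and the differences of miR-23b and miR-27b, 0.52 and 0.88, missed the threshold (adjusted p = 0.272 and 0.0596). miR-24-3p, which both clusters produce, was not called (0.26, SE 0.34). miR-27a and miR-27b differ by 1 base. Sharing of signal between their probes was not tested. The fall of miR-27a was not called when replicate numbers were blocked.

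The miR-17-92 cluster and its paralogs, known as oncogenic in lymphomas and T-ALL, gave 1 call among 12 measured members. miR-25-3p fell from 1.21, 1.12 and 1.18 to 0.00, 0.15 and 0.10 (log2 fold change -1.09, SE 0.20, adjusted p = 0.00123). miR-19b-3p gave 1.90, 2.02 and 2.21 in LS against 2.12, 2.07 and 1.94 in DP, with a 95% interval of the difference from -0.80 to 0.80. miR-20a-5p differed by -0.02 (interval -0.87 to 0.83) and miR-92a-3p by -0.58 (interval -1.28 to 0.12). The passenger strand miR-20a-3p was at the floor on every DP array and at least 1.46-fold higher in LS. The 3 miR-29 members, suppressive in several leukaemias, were not called either, at -0.47, 0.00 and 0.85 on the log2 scale for miR-29c, miR-29a and miR-29b. LS and DP did not overlap in miR-29c and miR-29b.

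The seed AGUGCAA was carried by members that moved apart. miR-130a-3p, at -5.55, -5.63 and -5.62 in DP, was at the floor on all LS arrays and at least 2.73-fold lower (adjusted p = 1.08e-04). It entered through the DP arrays alone and had to be higher there. miR-301a-3p fell 2.00-fold, from -1.57, -1.68 and -1.81 to -2.40, -2.86 and -2.79, and miR-130b-3p was not called (log2 fold change -0.65). miR-301b-3p, of the same family by name but without a sequence here, was not called either (-0.05). miR-721 rose as given above, and differs from miR-130a, miR-130b and miR-301a after the seed.

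**Figure D3:**
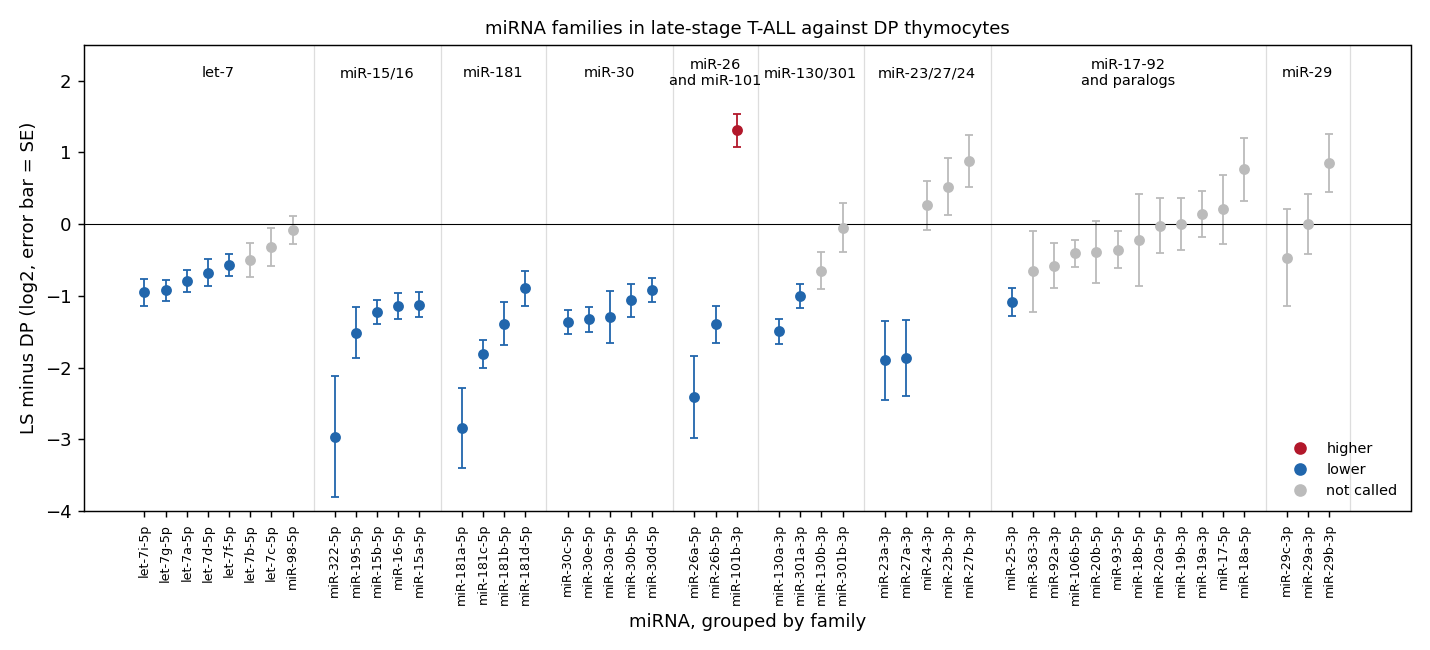
Difference LS minus DP (log2, y axis) with its standard error for each measured member of 9 miRNA groups, red where called higher, blue where called lower and grey where not called. The points of miR-322-5p and miR-130a-3p are fitted against LS arrays at the floor. The miR-15/16, miR-181 and miR-30 families lie wholly below 0. The miR-17-92 and miR-29 groups have points on both sides of 0, nearly all of them not called. The miR-23/27/24 group and the group of miR-26 and miR-101 are split.

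Of the lymphocyte maturation list, miR-342-3p rose 4.22-fold, from -4.09, -4.24 and -4.17 to -1.36, -2.65 and -2.26 (adjusted p = 0.00134), and its other arm miR-342-5p was near the floor in both groups. miR-150-5p, which marks mature T cells and restrains Myb, gave -1.91, -1.93 and -1.68 in DP and -3.17, -4.70 and -6.40 in LS. All LS arrays were below all DP arrays, but they spread over more than 3 log2 units and the difference of -2.92 (SE 1.20) missed the threshold (adjusted p = 0.0576).

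The 2 arms of a hairpin could be compared in 29 cases. Both rose in 2 (miR-211 and miR-712), both fell in 3 (miR-140, miR-195 and miR-30e), 1 arm was called in 13 and neither in 9. In 2 hairpins the arms were called in opposite directions. miR-877-5p was at -4.87, -5.90 and -6.30 in LS and at the floor in DP, while miR-877-3p fell from -5.27, -5.39 and -4.96 to -6.32, -6.30 and -5.86. miR-1839-5p rose by 0.81 and miR-1839-3p fell by 0.96. The call of miR-877-5p was lost with normexp background correction, with a floor raised by 1 log2 unit and within slide 1, and that of miR-1839-5p without any 1 of DP 1, DP 2, DP 3, LS 1 and LS 3. miR-149 showed a wider gap, with miR-149-3p higher as given above and miR-149-5p at -6.65, -6.16 and -6.70 in LS against -5.50, -5.92 and -5.83 in DP (log2 fold change -0.76, adjusted p = 0.0946).

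Members of the miR-466, miR-669, miR-467 and miR-297 names, most of which come from a large repeat cluster in an intron of Sfmbt2, numbered 29. None rose, 13 fell and 16 were not called, with a median of -0.88. The falls lay on the 5p side. Of the 16 members named 5p 11 fell (median -1.73), of the 9 named 3p none was called (median 0.13), and 2 of the 4 without an arm in the name fell. miR-466h-5p, for example, went from -3.63, -3.54 and -2.96 to the floor, -7.01 and -5.54 (log2 fold change -3.17, SE 0.39, adjusted p = 1.18e-04), while miR-466h-3p gave -4.48, -4.52 and -4.56 in DP and -4.09, -4.36 and -4.54 in LS (log2 fold change 0.19, adjusted p = 0.56). On DN arrays miR-466h-5p was at -6.53 ± 0.39, as low as in LS. Many of these miRNAs have near-identical sequences, and sharing of signal between their probes was not tested. The 14 members that entered through the DP arrays alone had to be higher there, and 12 of the 13 falls are among them. Of the 15 detected on every array of both groups 1 fell (miR-669n), 14 were not called and the median was 0.13.

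The run GUGUGU, searched on the mature strand alone, was found in 10 of the 196 members with a sequence (5.10%) and in 1.01% of the 1679 mature mouse miRNAs in RefSeq. All 10 fell, with a median of -2.45 on the log2 scale (-2.43 with 4 members at their bounds) and a range from -3.58 (miR-672-5p) to -1.28 (miR-574-5p). Among the 186 members without the run 32.8% fell. miR-672-5p gave -3.28, -3.18 and -2.45 in DP and the floor, the floor and -5.47 in LS (adjusted p = 1.08e-04), and miR-32-3p -2.47, -2.49 and -1.77 against -6.55, -6.14 and -4.46. miR-206-3p, known as a muscle miRNA, gave -4.93, -4.92 and -4.27 in DP and was at the floor on all LS arrays, at least 5.07-fold lower. Of the 10, 2 have names of the Sfmbt2 type (miR-466j and miR-669n). Only 3 other members with such names have a sequence here. Most of the 29 could therefore not be searched for the run, and how far the 2 groups overlap is not known. Of the 10, 6 entered through the DP arrays alone and had to be higher there. The other 4, miR-669n, miR-3082-5p, miR-1187 and miR-574-5p, were detected on every array of both groups and fell by 2.51, 1.92, 1.59 and 1.28 on the log2 scale.

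These 10 moved together across arrays. Their median was -2.87, -2.83 and -2.11 on DP 1, DP 2 and DP 3, and -6.82, -6.62 and -4.96 on LS 1, LS 2 and LS 3. DP 3 was the highest DP array for all 10, against 48 of the 93 falls. LS 3 was the highest LS array for 8, with ties at the floor in the others, against 62 of all 261 members. The medians on the DN arrays were -6.11, -6.53 and -6.29, and M295 had -1.72, above every DP array. The sequences resemble each other, so the 10 are not independent measurements.

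**Figure D4:**
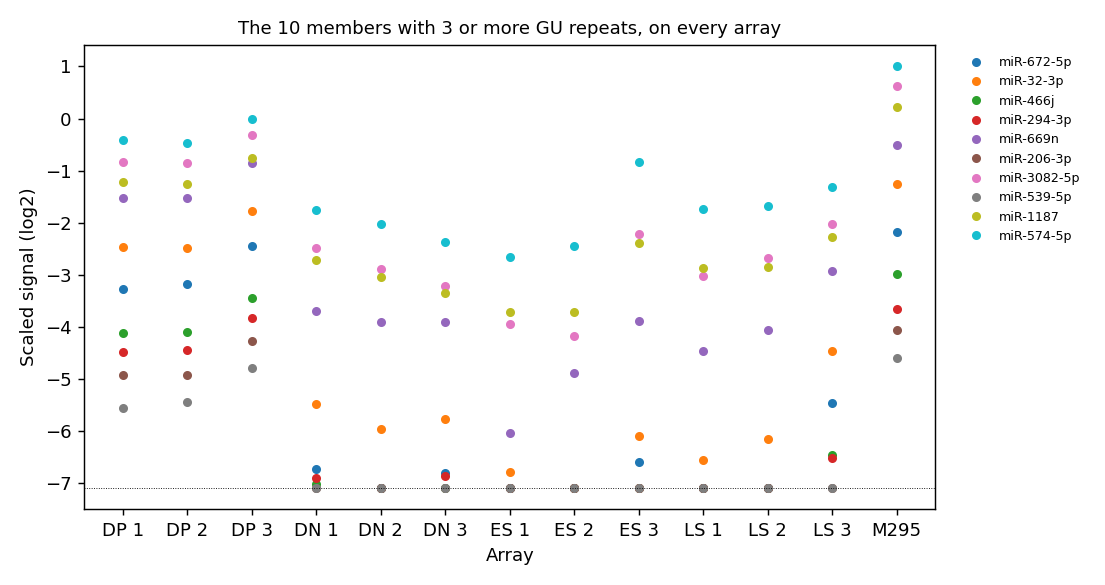
Scaled signal (log2, y axis) of the 10 members with a run of at least 3 GU repeats on each of the 13 arrays (x axis), 1 colour for each miRNA, with a dotted line at the floor. Each of the 10 is higher on every DP array and on M295 than on any DN, ES or LS array.

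The run GGGG was found in 27 members (13.8%) and in 11.2% of the mature miRNAs in RefSeq. Of the 27, 16 rose, 5 fell and 6 were not called (median 1.49, or 1.40 with 8 members at their bounds), and of the 169 members without it 18.3% rose. Of the 18 detected on every array of both groups 13 rose and 2 fell. LS 1 was the highest LS array for 25 of the 27, against 128 of all 261 members and 24 of the 93 falls. Over all 62 rises LS 1 was highest in 48, LS 2 in 8 and LS 3 in 6, and LS 1 also had the highest SD of negative controls in LS. What part the array has in these rises was not tested. The 5 that fell with the run were miR-155-5p, miR-5620-5p, miR-3070b-3p, miR-361-5p and miR-423-5p.

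Base composition moved with the difference. The median G and C content was 60.9% in the 47 rises with a sequence, 45.5% in the 71 falls and 47.8% in the 78 members not called. The share of members with at least 60% G and C was 55.3% among the rises and 11.3% among the falls. Across the 196 members the rank correlation of G and C content with LS minus DP was 0.42, and 0.36 over the 134 detected on every array of both groups. Over the same 196 it was 0.46 with LS minus DN, which shares the LS arrays, and 0.09 with DN minus DP. These are descriptions across miRNAs that share arrays and are not replicates, and what part hybridization has in them was not tested.

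**Figure D5:**
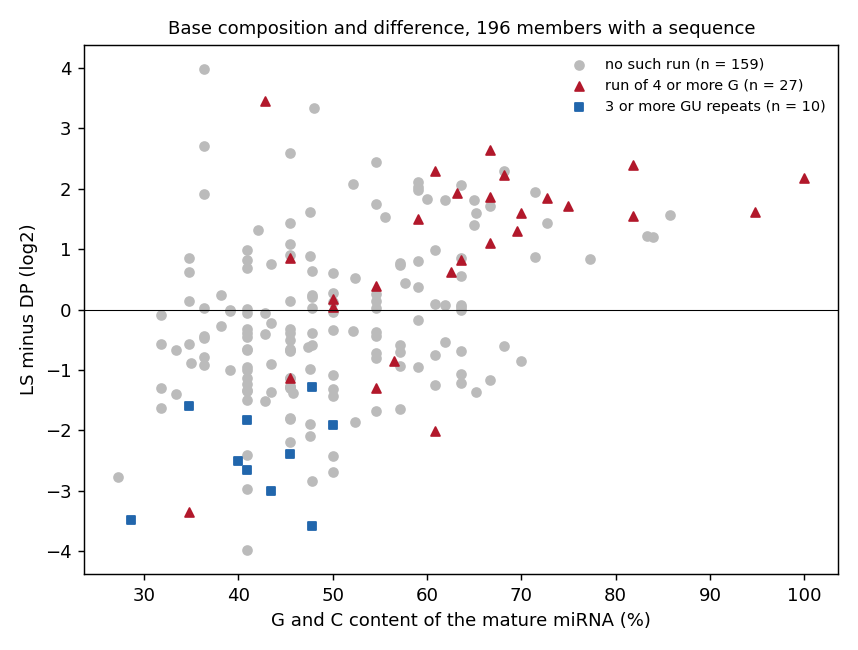
G and C content of the mature miRNA (%, x axis) against the difference LS minus DP (log2, y axis) for the 196 members with a sequence. Red triangles mark the 27 members with a run of 4 or more G, most above 0, and blue squares the 10 with 3 or more GU repeats, all below 0.

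Markers of other cells were mostly not above background. This held on every LS and DP array for the 2 myeloid miRNAs (miR-223), the 7 progenitor miRNAs (of the miR-10a, miR-99, miR-100, miR-125 and miR-196b names) and the 13 endothelial and stromal miRNAs. Of the last, miR-126-3p was a member and missed the threshold (adjusted p = 0.117). Of the 14 epithelial miRNAs 3 were above background on an LS array and none on a DP array, with a summed level of 0.12 to 0.13 in LS and 0.10 to 0.11 in DP. A miRNA at the floor counts at the floor value in such a sum, so most of both sums comes from the floor. miR-141-3p was above background on 2 LS arrays and no DP array, at -5.81, -5.83 and -5.95 against -6.53, -6.92 and the floor, and its sign turned with normexp background correction. Of the 13 miRNAs of liver, muscle and brain only miR-206-3p was above background in DP, and miR-9-5p and miR-9-3p were above background on LS 1 alone, at -2.27 and -2.66, and at the floor on LS 2, LS 3 and every DP array.

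At the edge of the rule, 36 members were detected on all 3 arrays of one group and on none of the other, and their mean in the higher group ran from -7.05 to -3.63 with a median of -5.50. Another 44 miRNAs missed the rule with 2 of 3 arrays in the higher group, at -6.97 to -4.31 with a median of -6.13. Members without a RefSeq match numbered 19, of which 9 were called higher, 4 lower and 6 not, and a further 46 matched a gene without a mature entry, miR-150-5p, miR-23b-3p, miR-30b-5p and miR-30d-5p among them.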

How the data were processed

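MiRNAs were measured on 1-colour Agilent arrays, 3 each of LS, DP, DN and ES and 1 of M295. The scanner files deposited by the authors hold the background-subtracted fluorescence intensity of each spot, read with Agilent Feature Extraction 10.7.3.1 per the file headers. The deposited value table is on the log2 scale. RMA, affy, MAS5 and GCOS appear in the submitters' processing notes, with no version.

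Control spots were left out, as were outlier spots (4.06 to 8.63% of the other spots on an array). Intensities were averaged over the spots of a probe, then over the probes of a miRNA, and scaled to the 75th percentile of the 133 mouse miRNAs that all 12 primary arrays detected. A floor of -7.094 was set before log2. The 268 miRNAs detected on all arrays of any group were fitted with limma 3.58.1 in R 4.3.3 over the 12 arrays, with 1 mean per group. "Above background" means that at least 50% of the spots of a probe carry the scanner software's mark. A bound takes, on each array of the lower group, the higher of the value and the lowest signal above background. The script was tested on simulated data. The number of arrays limits the precision.

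The members and lists were chosen with earlier results of these data known. Named by rule are the 12 largest rises and falls among called members above background in both groups without overlap, the 6 largest bounds per direction, the list members, and members that share a seed or hairpin with them. Others were chosen after their values were seen. Same-numbered LS and DP arrays deviated together (r = 0.20, 0.16 and 0.47 for numbers 1, 2 and 3), though LS 1 with DP 2 reached 0.25, and the labels do not say what a number marks. Alternatives were other scalings, quantile normalization, normexp with an offset of 50, other filters, the slide or replicate number as a block, and each array left out.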

Additional observations from a re-analysis of the deposited data

Results flagged for a closer look

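Of 268 tested miRNAs, 3 differed between LS and ES, whose comparison with DP is the same contrast at 2 stages of the disease, at a limma adjusted p under 0.05. miR-344i was 1.24 higher in LS than in ES on the log2 scale (adjusted p = 0.0241), with LS minus DP at 1.84, at least 3.57-fold since no DP array was above background, and ES minus DP at 0.59. miR-3473b was 1.25 higher (adjusted p = 0.0241), with 1.80 and 0.56. miR-3968 was lower in LS than in ES by -0.94 (adjusted p = 0.0241), with -0.93 against DP in LS and 0.01 in ES. The LS arrays gave -4.94, -4.52 and -4.82 for miR-344i against -6.45, -6.79 and -6.54 in DP, and 1.22, 1.14 and 1.12 for miR-3968 against 2.07, 1.96 and 2.24. In both the arrays of LS and DP were tight and apart. LS and ES are compared with the same DP arrays.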

How the results depend on the processing

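The number of calls depended on several choices. Against 156 called miRNAs in all, 61 were called within slide 1, where 16 members were higher and 44 lower. Members higher in LS fell from 62 to 28 with normexp background correction and to 29 with no filter, which tests all 1122 miRNAs. Leaving out 1 array gave 128 to 191 called miRNAs, 43 to 78 members higher, 82 to 109 lower, and a difference in detected miRNAs per array of 0.17 to 16.2. The 191 calls (81 higher and 110 lower) were made without ES 3, an array of neither compared group. On ES 3 the myeloid miR-223-3p lay at 3.25, against -5.60 and -6.64 on ES 1 and ES 2. What part other cells have in the spread of ES was not tested. With the replicate number as a block, 62 miRNAs were higher and 103 lower, and 144 of the 155 called members were still called. Beside those named in the report (miR-712-3p and miR-27a-3p), the block ended no call among the miRNAs named here by the rule. Scaling over all mouse miRNAs gave 71 higher and 70 lower, the values deposited by the authors gave 71 and 85, and a scaling to the median, added after seeing the data, 63 and 102. Of the 155 calls, 34 were made under all 16 other settings and each of 12 left-out arrays, and 117 whichever array was left out. Among 118 miRNAs followed singly, 4 values changed sign. miR-141-3p went to -0.0047 with normexp, and within slide 2 miR-467a-3p, miR-467b-5p and miR-467e-5p went to 1.42, 1.06 and 0.58, where LS is 1 array; the cause was not tested. Signals near the floor of -7.09 limit what can be measured, since a fall below it has only a bound. With 3 arrays in a group, the exact test of detected counts cannot go below p = 0.1.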

Other observations

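Some members outside the lists and the largest differences also separated the groups. The neighbours miR-192-5p and miR-194-5p, known from liver and gut, fell by 0.98 on the log2 scale and, with no LS array above background, at least 2.35-fold. miR-140-3p fell from -1.72, -1.83 and -1.80 in DP to -3.49, -3.16 and -3.65 in LS (log2 fold change -1.65, SE 0.34, limma adjusted p = 0.00278), and its other arm miR-140-5p fell by 0.98. miR-125a-3p and miR-135a-1-3p, not above background on any DP array, were at least 3.55-fold and 3.71-fold higher in LS, while miR-125a-5p, a progenitor miRNA from the same hairpin as the former, was at the floor on all LS and DP arrays. Of the cluster of miR-188, miR-362, miR-500 and miR-532, miR-188-5p rose by 1.81 and miR-532-5p and miR-500-3p fell by 1.23 and 0.72. These miRNAs were chosen after their values were seen.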
